A study of Homo sapiens with 23 samples.

Results

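The genes described here are 8 genes of plasminogen activation and of the start and braking of coagulation: PLAU, PLAUR, PLAT, SERPINE2, F3, TFPI, TFPI2 and THBD. They are a list of gene names, drawn up with earlier results of these data known, among the 19775 genes that have a probe set annotated to that gene alone. The 8 genes have 19 such probe sets, and for each gene the one brightest on average (mean log2 signal over all arrays) is its main probe set. All 8 of these probe sets had a mean of at least 100 units in some group, although TFPI2 barely did.

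Plasminogen is an inactive protease of blood plasma and tissue fluid that is cut to plasmin, which dissolves fibrin and helps cells to loosen the surrounding matrix. PLAU (urokinase) and PLAT (tissue plasminogen activator) make that cut, PLAUR is the receptor that holds urokinase at the cell surface, and SERPINE2 (protease nexin-1) is a secreted inhibitor of urokinase, plasmin, tissue plasminogen activator and thrombin. Coagulation starts when tissue factor (F3), a membrane protein of many epithelial cells, binds factor VII. TFPI inhibits that complex together with factor X, TFPI2 is a related inhibitor that lies in the matrix and acts on plasmin, and THBD (thrombomodulin) binds thrombin and turns it towards the activation of protein C, an anticoagulant.

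RNA was measured in MCF10A-ER-Src cells, a line of non-transformed human mammary epithelial cells that carries the Src kinase fused to the hormone-binding domain of the estrogen receptor. All groups carry that fusion, and 1 µM 4-hydroxytamoxifen (TAM) switches it on, whereas ethanol (EtOH) is the vehicle. Before treatment the cells had been grown for 48 h with 25 nM of an siRNA pool against the transcription factor STAT3 (siSTAT3) or with a non-targeting pool (siNEG, which the study calls siSCM). The 8 groups are siSTAT3 or siNEG cells with TAM or EtOH for 24 or 4 h, with 3 arrays each except siSTAT3 cells with TAM for 24 h, of which 2 (replicates 2 and 3) were analysed here. The study calls its replicates biological, but no sample description states that they were separate cultures, so p-values measure the spread between these arrays, which may be technical.

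The 23 arrays gave MAS5 signals, which are linear and in arbitrary units, with a median of 73.5 to 85.3 units per array, and their number limits the precision. Between pairs of arrays of the same group, log2 signals were 0.184 to 0.262 apart on average, regardless of sign, over the 27612 probe sets above 100 units. As a sign of RNA quality, the ACTB 3'/5' ratio was 1.21 to 1.44, with 1.21 on both siSTAT3 TAM 24 h arrays. The targeted gene STAT3 had 298 to 495 units on siSTAT3 arrays and 3914 to 6753 units on siNEG arrays, without overlap. The keratins KRT5 and KRT14 and 3 further measured basal epithelial markers had group means of at least 1331 units. Of the marker lists of other cells, 5 of 6 luminal genes reached 100 units in some group, with KRT18 at 13468 to 17275 units. So did COL1A1 (288 to 937 units) and DCN (1571 to 6858 units) of 7 fibroblast genes. PF4 (72.2 to 264 units) and PPBP (10.9 to 680 units) of 4 platelet genes also did. PECAM1 (190 to 422 units) and TEK (4.24 to 166 units) of 8 endothelial genes did too. Of 5 measured immune genes, CD14 (393 to 845 units) and ITGAM (64.5 to 107 units) reached it. The defining endothelial genes CDH5 and VWF stayed at or below 32.7 units and PTPRC of leukocytes at or below 43.5 units.

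Log2 signals were fitted with limma, and a difference was called when its p, adjusted over all 54675 probe sets of a comparison, was under 0.05. The response to TAM is TAM minus EtOH on the log2 scale, and the difference between the responses is the one in siSTAT3 cells minus the one in siNEG cells (the interaction). The share of all probe sets called is the background against which a count of these 8 genes is read. Shares were larger among the 27612 probe sets with a group mean of at least 100 units, as all 8 genes have. At 24 h they were 20.7% and 3.47% for TAM in siNEG and siSTAT3 cells and 7.61% for the interaction. For siSTAT3 minus siNEG at 24 h they were 22% with TAM and 3.66% with EtOH. In the same order at 4 h they were 4.36%, 1.04%, 0.728%, 12.6% and 5.85%. For 24 h minus 4 h with EtOH they were 16.8% in siNEG and 18.8% in siSTAT3 cells.

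RefSeq promoter sequences (GRCh38.p14, from 250 bases before to 50 after the start of the gene) were held for 6 of the 8 genes, in 8 windows. PLAT and THBD had none. Those of PLAUR and F3 are shown because they held matches to the AP-1 motif TGANTCA, which reads the same on both strands and is set in capitals, and were picked after the matches were seen. PLAU, which like them lay lower at 24 h than at 4 h of vehicle and higher with TAM at 24 h, had no match in its windows. PLAUR lies on the minus strand of chromosome 19 and F3 on the minus strand of chromosome 1.
PLAUR, chr19:43670120-43670419: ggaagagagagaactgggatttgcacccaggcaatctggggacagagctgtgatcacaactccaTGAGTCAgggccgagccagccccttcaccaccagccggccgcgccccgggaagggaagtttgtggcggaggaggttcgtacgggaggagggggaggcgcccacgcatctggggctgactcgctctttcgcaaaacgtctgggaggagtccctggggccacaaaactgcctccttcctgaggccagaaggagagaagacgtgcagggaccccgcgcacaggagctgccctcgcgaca
F3, chr1:94541710-94542009: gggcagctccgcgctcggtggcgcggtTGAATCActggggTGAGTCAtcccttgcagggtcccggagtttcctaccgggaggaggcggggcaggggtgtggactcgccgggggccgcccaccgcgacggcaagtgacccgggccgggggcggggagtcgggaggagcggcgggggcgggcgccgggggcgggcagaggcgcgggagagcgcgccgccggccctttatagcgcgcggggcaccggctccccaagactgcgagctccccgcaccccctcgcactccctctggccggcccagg
The PLAUR window held TGAGTCA starting at position -186 from the start site, and the F3 window held TGAATCA at -223 and TGAGTCA at -210. The TFPI2 window also held 1 match, TGAATCA at -87, and the other 5 windows, of PLAU, SERPINE2 and TFPI, held none. Of 35116 promoter windows of this length, 7.71% held the AP-1 motif, 7.66% the STAT motif TTCNNNGAA and 0.558% the NF-kB motif, and neither of the last 2 motifs matched, on either strand, in the 8 windows. A match is a stretch of letters and does not show that a factor binds there. The study reports that most STAT3 sites lie in introns or away from annotated genes. Windows of this length largely leave such places out, so the lack of a STAT match does not show that STAT3 leaves a gene unbound.

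TAM at 24 h raised, in siNEG cells, the urokinase genes PLAU and PLAUR, the inhibitor SERPINE2, F3, THBD and, at low signal, TFPI2, and lowered PLAT. In siSTAT3 cells at 24 h, PLAU, PLAUR and F3 were called, all higher, against 1.29% of all probe sets called higher and 1.87% in either direction. In siNEG cells at 24 h, 7 of the 8 genes were called, against 11.3% of all probe sets, with 6 higher (4.8% of all probe sets) and 1 lower (6.54%). The responses differed between siSTAT3 and siNEG cells at 24 h for 4 genes, PLAU, PLAT, SERPINE2 and THBD, against a background of 4.06%. At 4 h, PLAUR was called higher and THBD lower in siSTAT3 cells, where 0.582% of probe sets were called, and in siNEG cells these 2 genes were called in the same directions and PLAT was called lower, with a background of 2.35%. No gene of the 8 passed limma's test for a difference between the 4 h responses (background 0.399%), although 1 gene, PLAT, had an unadjusted p under 0.05 and passed with an intensity trend in the prior (0.76, adjusted p = 0.0274). The share of all probe sets with an unadjusted p under 0.05 was not counted.

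The median log2 response of the 8 genes in siNEG cells was 1.59 at 24 h and 0.16 at 4 h, beside -0.04 and -0.06 over all probe sets. Fits with the arrays of a comparison alone, which leave few degrees of freedom for the spread, kept 23 of the 52 calls of the 8 genes over 14 comparisons, and the accounts below name those kept.

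**Figure D1:**
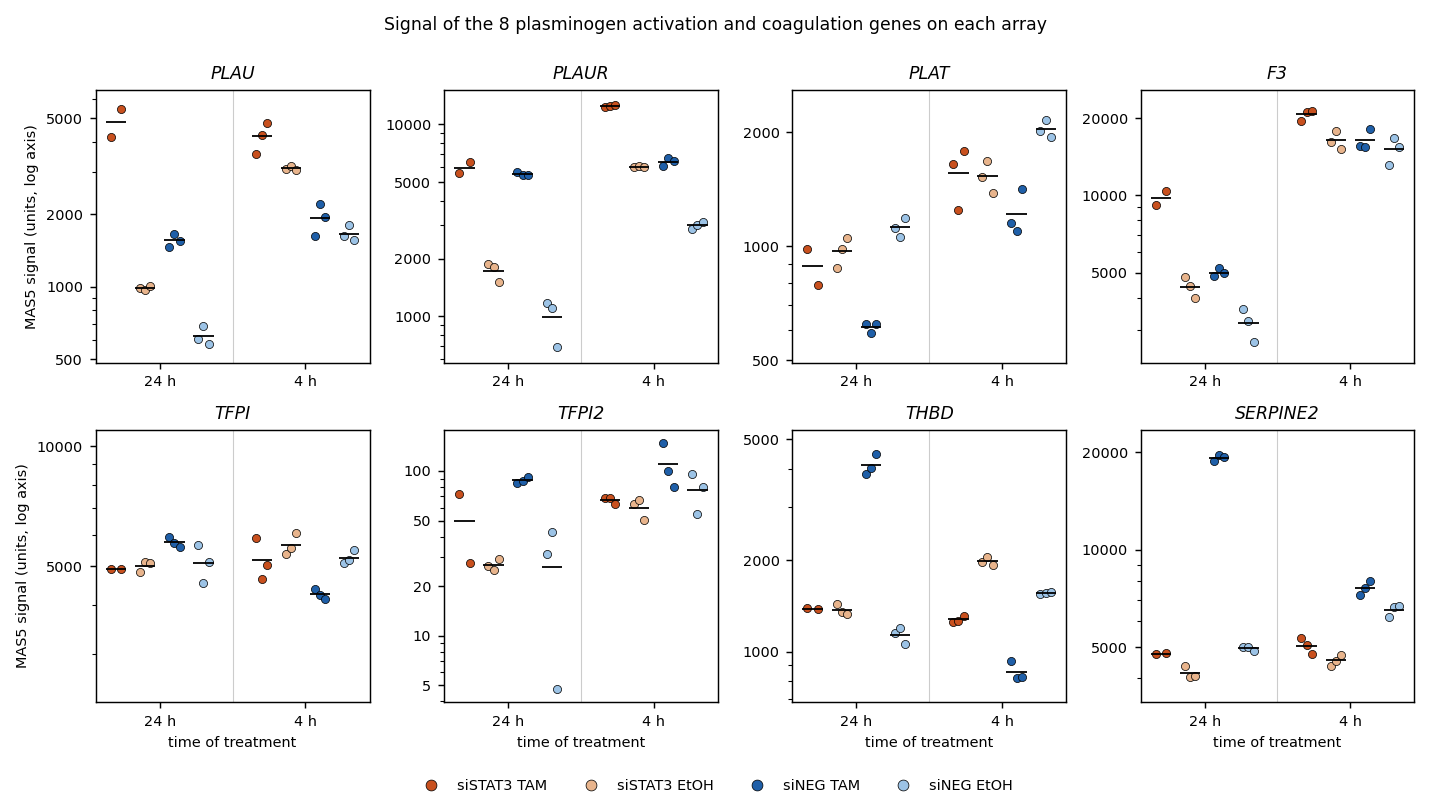
MAS5 signal (units, log axis) of each gene on each array, with points for arrays, lines for group means, and groups coloured by siRNA and treatment at 24 h and 4 h. SERPINE2 and THBD are highest on the 3 siNEG TAM 24 h arrays, and PLAU on the siSTAT3 TAM arrays.

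PLAU rose with TAM at 24 h in both siRNA settings and was higher in siSTAT3 than in siNEG cells in every treatment and at both times. At 24 h its signals were 4186 and 5446 units in siSTAT3 cells with TAM and 990, 968 and 1009 units in siSTAT3 cells with EtOH. In siNEG cells at 24 h they were 1458, 1655 and 1550 units with TAM, against 606, 686 and 580 units with EtOH. These 4 groups did not overlap, and the vehicle-treated siNEG arrays were the lowest of the series.

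The log2 response of PLAU at 24 h was 2.27 (SE 0.14, adjusted p = 2.25e-07) in siSTAT3 cells and 1.32 (SE 0.13, adjusted p = 1.65e-06) in siNEG cells. These are 4.83-fold and 2.49-fold increases, and the difference of the responses was 0.95 (SE 0.19, adjusted p = 0.00733). At 4 h the signals were 3565, 4267 and 4793 units in siSTAT3 cells with TAM and 3090, 3175 and 3055 units with EtOH, against 1617, 2203 and 1943 units in siNEG cells with TAM and 1621, 1802 and 1555 units with EtOH. The siSTAT3 arrays all lay above the siNEG arrays. TAM and EtOH arrays overlapped in siNEG cells and did not in siSTAT3 cells. Neither 4 h response was called on this probe set (0.43, adjusted p = 0.216 in siSTAT3 cells and 0.20, adjusted p = 0.599 in siNEG cells).

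Set against siNEG cells, PLAU in siSTAT3 cells was higher by log2 differences of 1.62 with TAM and 0.67 with EtOH at 24 h, and 1.13 with TAM and 0.91 with EtOH at 4 h (adjusted p between 4.73e-07 and 0.00952). Without siNEG EtOH 24 h replicate 3 the difference with EtOH at 24 h was 0.62 (adjusted p = 0.0534), and without siSTAT3 TAM 24 h replicate 3 the difference of the 24 h responses was 0.76 (adjusted p = 0.0734). A second PLAU probe set gave responses of 2.14 and 1.41 in siSTAT3 and siNEG cells at 24 h. At 4 h it gave 0.61 in siSTAT3 cells, which was called (adjusted p = 0.0316), and 0.05 in siNEG cells, which was not. With the arrays of a comparison alone, the main probe set kept its call for the 24 h response in siNEG cells. It also kept those for the 24 h siSTAT3 difference with TAM and the difference of the responses. No other call above on that probe set was kept.

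PLAUR was the gene of the 8 that was called for TAM in each of the 4 siRNA and time settings. At 24 h it had 5584 and 6342 units in siSTAT3 cells with TAM and 1869, 1813 and 1516 units with EtOH. In siNEG cells at 24 h it had 5673, 5477 and 5487 units with TAM, against 1181, 1110 and 689 units with EtOH. The TAM arrays of both siRNAs overlapped, while the EtOH arrays of siSTAT3 cells all lay above those of siNEG cells.

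The log2 response of PLAUR at 24 h was 1.79 (SE 0.16, adjusted p = 1.02e-05) in siSTAT3 cells and 2.52 (SE 0.15, adjusted p = 2.88e-09) in siNEG cells, and the difference between them, -0.73 (SE 0.22, adjusted p = 0.0801), did not pass. Without siNEG EtOH 24 h replicate 1 this difference was -0.88 (adjusted p = 0.0277). Between siSTAT3 and siNEG cells at 24 h, PLAUR differed by 0.10 (adjusted p = 0.809) with TAM and 0.84 (adjusted p = 0.00431) with EtOH. So the siRNA groups were apart in the vehicle and overlapped under TAM.

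At 4 h, PLAUR had 12410, 12455 and 12583 units in siSTAT3 cells with TAM and 5992, 6102 and 5997 units with EtOH, against 6060, 6718 and 6429 units in siNEG cells with TAM and 2838, 2989 and 3106 units with EtOH. The log2 response to TAM was 1.05 (SE 0.15, adjusted p = 0.00203), 2.07-fold, in siSTAT3 cells and 1.10 (SE 0.15, adjusted p = 0.000246), 2.15-fold, in siNEG cells. The siSTAT3 minus siNEG difference was of the same size, 0.96 with TAM and 1.02 with EtOH, and the difference of the responses was -0.05 (SE 0.21, adjusted p = 0.981). The second probe set gave 4 h responses of 1.10 and 1.13, and the third gave smaller 24 h responses, 0.95 in siSTAT3 and 1.27 in siNEG cells, with all 4 responses called on each. With the arrays of a comparison alone, both siNEG responses and the siSTAT3 difference with TAM at 4 h were kept.

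PLAT went the other way from PLAU: TAM lowered it in siNEG cells at both times, and in siSTAT3 cells no response was called. In siSTAT3 cells at 24 h it had 984 and 791 units with TAM and 876, 986 and 1050 units with EtOH, which overlapped. In siNEG cells at 24 h it had 621, 591 and 624 units with TAM, against 1121, 1061 and 1188 units with EtOH, without overlap. The siNEG TAM 24 h arrays were the lowest of all for this gene.

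The log2 response of PLAT at 24 h was -0.13 (SE 0.15, adjusted p = 0.827) in siSTAT3 cells and -0.87 (SE 0.13, adjusted p = 0.000232) in siNEG cells. At 4 h it was 0.02 (SE 0.13, adjusted p = 0.991) in siSTAT3 cells and -0.75 (SE 0.13, adjusted p = 0.00434) in siNEG cells, from 1652, 1245 and 1781 units with TAM and 1528, 1677 and 1385 units with EtOH in siSTAT3 cells, and 1151, 1095 and 1414 units with TAM and 2014, 2155 and 1945 units with EtOH in siNEG cells. The difference of the responses was of like size at both times, 0.74 at 24 h (SE 0.20, adjusted p = 0.0498) and 0.76 at 4 h (SE 0.19, adjusted p = 0.133), and the first stood at the edge of the threshold. It ended in 10 of 11 fits that left out 1 array (0.58 to 0.90, adjusted p 0.0475 to 0.209; only without siSTAT3 TAM 24 h replicate 3 was it kept), and with the replicate number as a block (0.73, adjusted p = 0.0791). The second became a call without siSTAT3 TAM 4 h replicate 2 (0.92, adjusted p = 0.0299).

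For PLAT, siSTAT3 minus siNEG with TAM at 24 h was 0.53 (adjusted p = 0.0286), and it was 0.54, 0.50 and 0.54 without siNEG TAM 24 h replicates 1, 2 and 3 and 0.37 without siSTAT3 TAM 24 h replicate 2 (adjusted p between 0.0572 and 0.274). With TAM at 4 h it was 0.35 (adjusted p = 0.165), and 0.50 (adjusted p = 0.0309) without siSTAT3 TAM 4 h replicate 2. PLAT has 1 probe set annotated to it alone. With the arrays of a comparison alone, its 24 h response in siNEG cells was the call that was kept.

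SERPINE2 stood far higher in siNEG cells with TAM at 24 h than in any other group. In siSTAT3 cells at 24 h it had 4747 and 4791 units with TAM and 4380, 4051 and 4066 units with EtOH. The siNEG cells had 18798, 19592 and 19306 units with TAM at that time, against 5015, 5005 and 4847 units with EtOH. The siSTAT3 TAM arrays lay below even the siNEG EtOH arrays.

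The log2 response of SERPINE2 at 24 h was 0.20 (SE 0.08, adjusted p = 0.287) in siSTAT3 cells and 1.96 (SE 0.07, adjusted p = 1.04e-11), a 3.88-fold increase, in siNEG cells, with a difference of -1.76 (SE 0.10, adjusted p = 3.41e-08). With TAM at 24 h the siSTAT3 minus siNEG difference was -2.01 (SE 0.08, adjusted p = 2.20e-11). At 4 h the means were 5053 ± 293 units with TAM and 4546 ± 184 units with EtOH in siSTAT3 cells, and 7626 ± 360 units with TAM and 6526 ± 279 units with EtOH in siNEG cells (SD, n = 3 each). Neither 4 h response was called, but siSTAT3 cells were lower in both treatments, by log2 differences of -0.59 with TAM (adjusted p = 2.23e-05) and -0.52 with EtOH (adjusted p = 0.000259). In siNEG cells at 4 h the TAM arrays (7259 to 7978 units) lay above the EtOH arrays (6206 to 6723 units). This response was called in 2 of 15 alternative settings (lowest adjusted p = 0.0192). All 3 called 24 h values were kept with the arrays of a comparison alone. A second SERPINE2 probe set, at 33.9 to 159 units, made no call and gave 0.75 for the 24 h response in siNEG cells (adjusted p = 0.372).

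F3 had its highest signals at 4 h and responded to TAM at 24 h. At 24 h it had 9171 and 10360 units in siSTAT3 cells with TAM and 4818, 4429 and 4005 units with EtOH. In siNEG cells at 24 h it had 4843, 5217 and 4972 units with TAM, against 3626, 3239 and 2682 units with EtOH. TAM and EtOH arrays did not overlap in either, and the siSTAT3 TAM arrays were the highest at this time.

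The log2 response of F3 at 24 h was 1.15 (SE 0.13, adjusted p = 0.000137) in siSTAT3 cells and 0.67 (SE 0.12, adjusted p = 0.00104) in siNEG cells. They differed by 0.48 (SE 0.18, adjusted p = 0.195), short of the threshold, so a larger response in siSTAT3 cells is not shown. The siSTAT3 minus siNEG difference at 24 h was 0.96 (SE 0.13, adjusted p = 7.70e-05) with TAM and 0.48 (SE 0.12, adjusted p = 0.0507) with EtOH, the second becoming 0.58 (adjusted p = 0.0328) without siNEG EtOH 24 h replicate 1. At 4 h the means were 20671 ± 1085 units with TAM and 16381 ± 1296 units with EtOH in siSTAT3 cells, and 16407 ± 1490 units with TAM and 15091 ± 1791 units with EtOH in siNEG cells (SD, n = 3 each), and none of the 4 h comparisons was called. F3 has 1 probe set annotated to it alone, and neither 24 h response was kept with the arrays of a comparison alone.

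Of the inhibitors of the tissue factor pathway, TFPI passed no test of the main fit on its main probe set. That probe set lay between 4142 and 6039 units on all arrays and was called there in none of the 14 comparisons. In siNEG cells at 4 h, however, its TAM arrays (4142 to 4389 units) lay below its EtOH arrays (5085 to 5475 units). That response was called in 2 of 15 alternative settings (lowest adjusted p = 0.0265). The siSTAT3 minus siNEG difference with TAM at 4 h was called in 3 of 15 (lowest adjusted p = 0.0221). The highest group mean was 5739 ± 172 units (siNEG, TAM, 24 h) and the lowest 4252 ± 126 units (siNEG, TAM, 4 h; SD, n = 3 each), and 6 of the 7 neighbouring pairs in this order overlapped. The difference between these ends was not a comparison of its own, but the siNEG response at 24 h minus that at 4 h was 0.48 (SE 0.13, adjusted p = 0.0561), and 0.56 (adjusted p = 0.0307) without siNEG EtOH 24 h replicate 1. This change of the response was called in 4 of 21 alternative settings.

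Other TFPI probe sets disagreed with the main one on the 24 h response in siNEG cells. The second, at 1995 to 3361 units, gave 0.39 (SE 0.07, adjusted p = 0.00107), and the third, at 282 to 567 units, gave 0.71 (SE 0.11, adjusted p = 0.000277), against 0.18 (SE 0.09, adjusted p = 0.293) on the main probe set. Both were also lower in siSTAT3 than in siNEG cells with TAM at 24 h, by log2 differences of -0.34 (adjusted p = 0.00642) and -0.39 (adjusted p = 0.0492). In siNEG cells at 24 h the fourth had means of 350 units with TAM and 348 units with EtOH. The fifth had 118 and 134 units, and TAM and EtOH arrays overlapped on each. The transcripts that each TFPI probe set reads were not analysed here.

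TFPI2 lay near the lower end of the array's range. At 24 h it had 72.3 and 27.6 units in siSTAT3 cells with TAM, against 26.5, 25.2 and 29.1 units with EtOH, and 84.1, 87.3 and 92.5 units in siNEG cells with TAM, against 31.2, 42.6 and 4.73 units with EtOH. TAM and EtOH arrays overlapped in siSTAT3 cells and did not in siNEG cells. The siSTAT3 response was 0.73 (SE 0.63, adjusted p = 0.749). The siNEG response was 2.25 (SE 0.56, adjusted p = 0.0136), and without the array at 4.73 units, siNEG EtOH 24 h replicate 3, it was 1.27 (adjusted p = 0.0215). The difference of the responses was -1.52 (SE 0.85, adjusted p = 0.456), and a second probe set called neither, so for TFPI2 the size of any change is not settled by these arrays.

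THBD changed direction with time: in siNEG cells TAM raised it at 24 h and lowered it at 4 h. In siSTAT3 cells at 24 h it had 1393 and 1377 units with TAM and 1438, 1347 and 1326 units with EtOH. In siNEG cells at 24 h it had 3842, 4037 and 4483 units with TAM, against 1148, 1192 and 1063 units with EtOH. The siNEG TAM arrays were the highest of the series, and TAM and EtOH arrays of siSTAT3 cells overlapped.

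The log2 response of THBD at 24 h was 0.02 (SE 0.09, adjusted p = 0.977) in siSTAT3 cells and 1.86 (SE 0.08, adjusted p = 4.46e-11), a 3.63-fold increase, in siNEG cells, and the responses differed by -1.84 (SE 0.11, adjusted p = 6.15e-08). The siSTAT3 minus siNEG difference with TAM at 24 h was -1.57 (SE 0.09, adjusted p = 1.18e-09). At 4 h, THBD had 1251, 1263 and 1314 units with TAM and 1969, 2048 and 1935 units with EtOH in siSTAT3 cells, and 929, 817 and 827 units with TAM and 1552, 1555 and 1566 units with EtOH in siNEG cells. TAM arrays lay below EtOH arrays in both, and siSTAT3 arrays above siNEG arrays of the same treatment.

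The 4 h response of THBD was -0.64 (SE 0.08, adjusted p = 0.000572) in siSTAT3 cells and -0.86 (SE 0.08, adjusted p = 3.76e-06) in siNEG cells, and their difference was 0.23 (SE 0.11, adjusted p = 0.640). The siSTAT3 minus siNEG difference at 4 h was 0.58 (adjusted p = 8.91e-05) with TAM and 0.35 (adjusted p = 0.0160) with EtOH. The second of these was not called without any 1 of siNEG EtOH 4 h replicates 1, 2 and 3 and siSTAT3 EtOH 4 h replicates 1 and 2 (0.33 to 0.35, adjusted p 0.0504 to 0.0702), nor on the second probe set. The other probe sets of THBD gave 1.92 and 1.95 for the 24 h siNEG response and -0.98 and -0.94 for that at 4 h. With the arrays of a comparison alone, the 24 h calls in siNEG cells, with TAM between the siRNAs and for the difference of the responses were kept, and the 4 h calls were not.

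**Figure D2:**
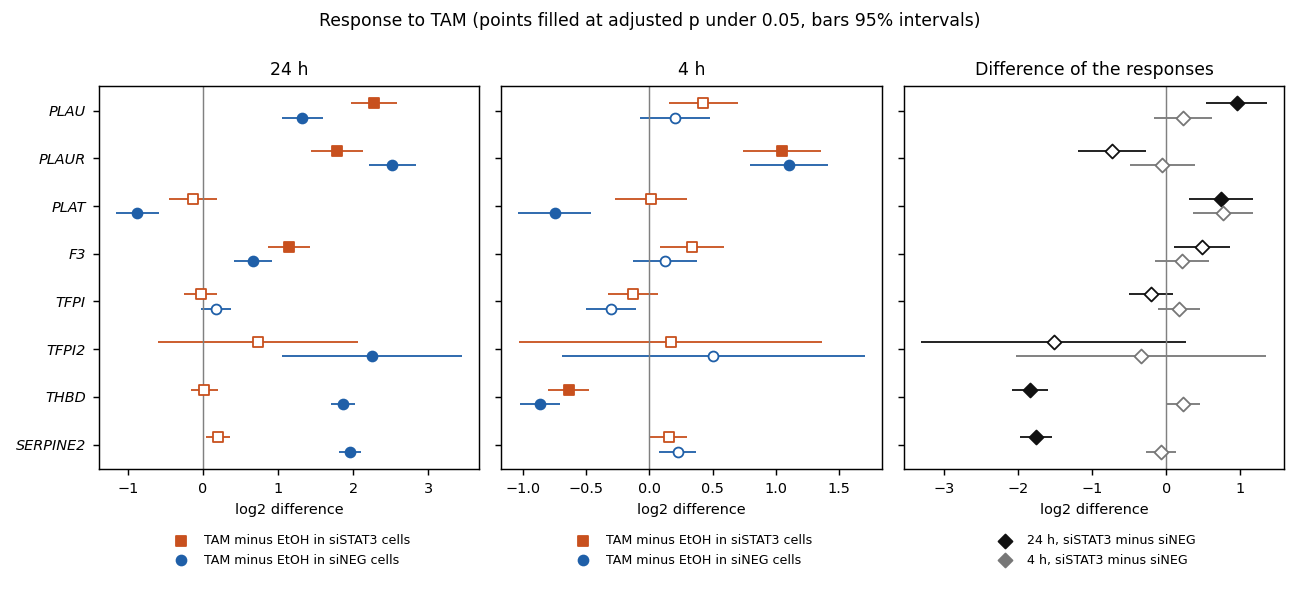
Log2 TAM minus EtOH difference of each gene at 24 h and at 4 h in siSTAT3 and siNEG cells, and the siSTAT3 minus siNEG difference of these responses, with 95% intervals; filled points passed an adjusted p of 0.05. At 24 h SERPINE2 and THBD lie near 0 in siSTAT3 cells (0.20 and 0.02) and far above it in siNEG cells (1.96 and 1.86).

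Whether the response to TAM changed with time was tested as the 24 h response minus the 4 h response. In siSTAT3 cells PLAU (1.84, SE 0.19, adjusted p = 0.000313) and THBD (0.65, SE 0.11, adjusted p = 0.0162) differed, and 0.329% of all probe sets did. In siNEG cells, PLAU (1.12, SE 0.18), PLAUR (1.42, SE 0.21), SERPINE2 (1.73, SE 0.10) and THBD (2.72, SE 0.11) differed (adjusted p between 9.24e-10 and 0.00140), and 3.7% of all probe sets did. THBD had the largest value of the 8 genes in siNEG cells with early and late responses of opposite sign. In siNEG cells, TAM means of PLAU and PLAUR were lower at 24 h than at 4 h (1554 and 1921, 5546 and 6402 units). Their EtOH means fell further, from 1659 to 624 and from 2977 to 993 units. SERPINE2 and THBD rose with TAM, from 7626 to 19232 and from 857 to 4121 units. In siSTAT3 cells, PLAU went from 4209 to 4816 units with TAM and from 3107 to 989 units with EtOH. THBD there went from 1276 to 1385 units with TAM and from 1984 to 1370 units with EtOH. The call for THBD in siSTAT3 cells was lost without siSTAT3 EtOH 24 h replicate 2, siSTAT3 TAM 24 h replicate 2 or siSTAT3 TAM 24 h replicate 3 (0.64, 0.64 and 0.66, adjusted p 0.0510, 0.0548 and 0.0772), and with equal array medians (0.68, adjusted p = 0.0607). With the arrays of a comparison alone, PLAU was kept in both siRNAs and PLAUR, SERPINE2 and THBD in siNEG cells.

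In vehicle-treated cells, the urokinase genes PLAU and PLAUR were higher with STAT3 siRNA at both times. No siRNA call with EtOH was kept with the arrays of a comparison alone. With EtOH at 24 h, PLAU and PLAUR were called higher (0.891% of all probe sets were, and 1.96% in either direction), and at 4 h PLAU, PLAUR and THBD were higher and SERPINE2 was lower (3.18% called). With TAM, 5 of the 8 genes were called at 24 h (PLAU, PLAT and F3 higher, SERPINE2 and THBD lower), against 12% of all probe sets. At 4 h with TAM, 4 were called (PLAU, PLAUR and THBD higher, SERPINE2 lower), against 6.77%. THBD was thus higher in siSTAT3 than in siNEG cells at 4 h and lower at 24 h under TAM.

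The genes also differed between 24 h and 4 h of vehicle, always lower at 24 h where a call was made. The study describes vehicle cells at 24 h as nearing confluence. Culture time, confluence and time since siRNA transfection cannot be told apart here. With EtOH, 24 h was lower than 4 h for 5 of 8 genes in siSTAT3 cells and for 7 of 8 in siNEG cells, where 4.43% and 4.45% of all probe sets were called lower and 10.1% and 9.07% in either direction. F3 had 4818, 4429 and 4005 units at 24 h and 16182, 17765 and 15196 units at 4 h in siSTAT3 cells with EtOH, and 3626, 3239 and 2682 units at 24 h and 13162, 16703 and 15406 units at 4 h in siNEG cells with EtOH. Its log2 differences were -1.89 (SE 0.12, adjusted p = 3.90e-08) in siSTAT3 cells and -2.25 (SE 0.12, adjusted p = 8.63e-09) in siNEG cells. No array at 24 h came near any at 4 h.

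PLAUR fell by 1.81 in siSTAT3 and 1.62 in siNEG cells on the log2 scale, PLAU by 1.65 and 1.41, PLAT by 0.66 and 0.86, and THBD by 0.53 and 0.46 (adjusted p between 3.61e-07 and 0.00389). SERPINE2 was called in siNEG cells (-0.40, adjusted p = 0.00121) and not in siSTAT3 cells (-0.13, adjusted p = 0.325). TFPI2 had -1.15 (adjusted p = 0.262) in siSTAT3 cells and -2.02 (adjusted p = 0.0324) in siNEG cells, and the second of these was -1.04 (adjusted p = 0.0757) without siNEG EtOH 24 h replicate 3, -1.85 (adjusted p = 0.107) without siNEG EtOH 4 h replicate 1 and -1.97 (adjusted p = 0.0865) without siNEG EtOH 4 h replicate 3. For PLAUR in siNEG cells, the second probe set gave -1.59, and the third gave -0.12 (adjusted p = 0.533). The calls for time that held with the arrays of a comparison alone were those of PLAU and F3 in both siRNAs and of PLAUR in siSTAT3 cells, and TFPI2 became one in siSTAT3 cells (-1.15, adjusted p = 0.0310).

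The order of the 8 groups therefore differed from gene to gene. For PLAU, siNEG cells with TAM at 24 h (1458 to 1655 units) overlapped siNEG cells with EtOH at 4 h (1555 to 1802 units), while siNEG cells with EtOH at 24 h lay below both. PLAUR ran highest in siSTAT3 cells with TAM at 4 h and lowest in siNEG cells with EtOH at 24 h, and the groups ranked 2 to 5 formed a chain of overlapping neighbours. For F3 every 24 h group lay below every 4 h group. For THBD, 1 pair of neighbours in the order overlapped of 7, siSTAT3 cells with TAM and with EtOH at 24 h.

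**Figure D3:**
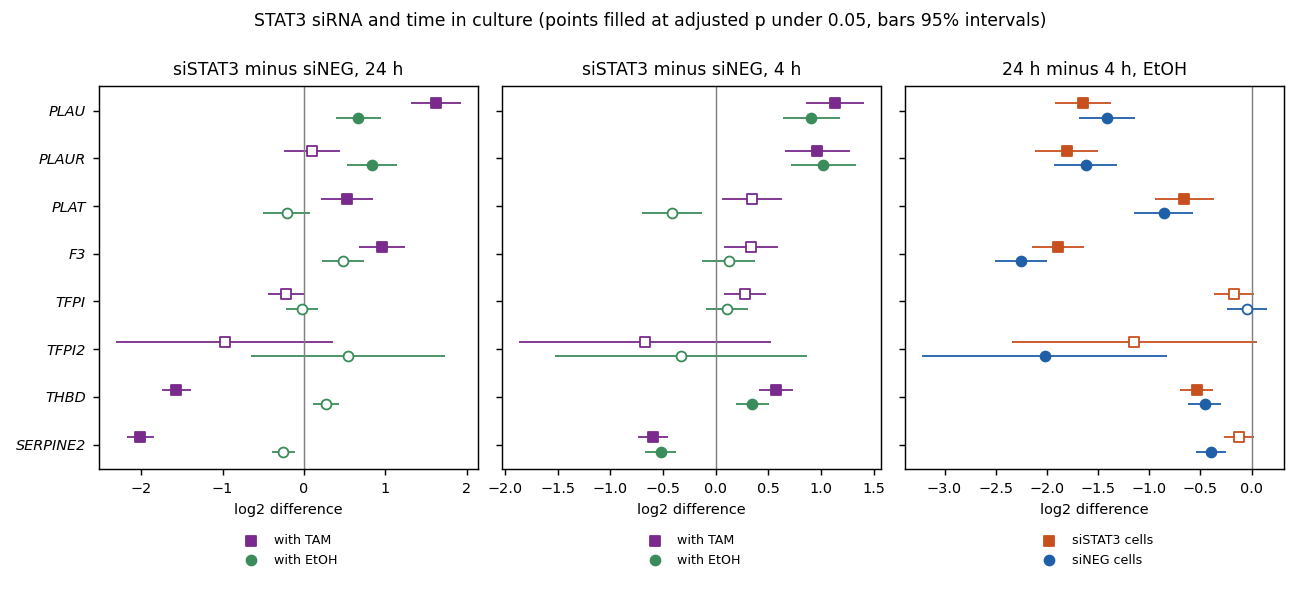
Log2 siSTAT3 minus siNEG difference of each gene with TAM and with EtOH at 24 h and at 4 h, and the log2 difference of 24 h minus 4 h in vehicle-treated siSTAT3 and siNEG cells, with 95% intervals; filled points passed an adjusted p of 0.05. PLAU lies right of 0 in all 4 siRNA comparisons (0.67 to 1.62), and F3 lies farthest left in time for both siRNAs (-1.89 and -2.25).

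Over the 8 group means of log2 signal, PLAU and PLAUR had the highest Pearson correlation of the pairs, 0.88, followed by TFPI and THBD (0.84), PLAUR and F3 (0.78), PLAUR and TFPI2 (0.78), and PLAU and F3 (0.77), and PLAT and SERPINE2 had the lowest, -0.52. These are descriptions over 8 points that share their arrays. The group means of TFPI spanned only 0.43 log2 units, without a call in the main fit, and TFPI2 lay at low signal. Among 2611 other genes with group means that span at least 1 log2 unit, those most like PLAU were FSTL3 (0.96), CXCL8 (0.95), the chemokine interleukin 8, and ITGB2 (0.94), and those most like PLAUR were ABL2 (0.99), LAMB3 (0.98) and FOSL1 (0.98), an AP-1 subunit. F3 was most like ETS1 (0.99), a transcription factor, MYADM (0.98) and IL1A (0.97), the cytokine interleukin 1 alpha. SERPINE2 was most like FGL1 (0.98), ACER3 (0.98) and EPAS1 (0.98), PLAT like ADORA2B (0.98), MSTO1 (0.96) and AOPEP (0.94), TFPI2 like CCL20 (0.96), ANGPTL4 (0.94) and TMEM158 (0.93), and THBD, with the lowest values, like GK3 (0.93), CDYL2 (0.91) and ADH4 (0.90).

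Of 22 other genes of plasminogen activation, its inhibitors and its receptors, 19 were measured and 14 of these reached 100 units in some group. With TAM at 24 h in siNEG cells, 5 were called, 2 higher and 3 lower, against 11.3% of all probe sets (4.8% higher and 6.54% lower). Among probe sets with a group mean of at least 100 units, 20.7% were called. The median log2 response was -0.07 over the list beside -0.04 over all probe sets. VLDLR, a lipoprotein receptor that clears protease and inhibitor complexes, had 268 ± 4.21 units with TAM against 51.0 ± 6.23 units with EtOH (SD, n = 3 each), a log2 response of 2.40 (SE 0.17, adjusted p = 2.47e-08), and PLGRKT, a membrane receptor for plasminogen, had 0.77 (adjusted p = 7.60e-05). ST14 (matriptase, a membrane protease of epithelia) fell by 0.94 (adjusted p = 3.27e-05), its inhibitor SPINT1 by 0.41 (adjusted p = 0.0438) and the receptor IGF2R by 0.29 (adjusted p = 0.0226).

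The 24 h responses in siSTAT3 and siNEG cells differed for 4 of these 19 genes, against 4.06% of all probe sets, by -1.82 for VLDLR, -0.62 for PLGRKT, 1.01 for ST14 and 0.52 for IGF2R (adjusted p between 0.000212 and 0.0370). No gene of this list was called for TAM at 4 h in siNEG cells, where 3 had an unadjusted p under 0.05, or in siSTAT3 cells at either time, where 2 had one at 24 h and 1 at 4 h. The share of all probe sets with such a p was not counted, so these counts have no background.

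Of 27 other coagulation genes, 26 were measured and 10 reached 100 units in some group. With TAM at 24 h in siNEG cells, 4 were called, 3 higher and 1 lower, against the same 11.3% (4.8% higher and 6.54% lower), and the median of the list was 0.26 beside -0.04 over all probe sets. F5, the cofactor of factor X in making thrombin, had 82.3 ± 30.9 units with TAM (SD, n = 2) and 119 ± 9.84 units with EtOH in siSTAT3 cells, and 1208 ± 39.0 units with TAM and 168 ± 10.0 units with EtOH in siNEG cells (SD, n = 3 each). Its siNEG response was 2.85 (SE 0.21, adjusted p = 6.41e-08), and the difference of the responses, -3.44 (SE 0.32, adjusted p = 4.15e-06), was larger in size than that of any of the 8 genes above.

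The remaining 3 called genes were PROCR, PROS1 and F12. PROCR, the protein C receptor that acts beside thrombomodulin, rose in siNEG cells at 24 h by 0.79 (SE 0.07, adjusted p = 1.10e-06) and PROS1 (protein S, the cofactor of activated protein C) by 0.72 (SE 0.10, adjusted p = 5.47e-05). F12, which starts the contact pathway, fell by 0.97 (SE 0.12, adjusted p = 1.93e-05). The responses in siSTAT3 and siNEG cells differed for 3 genes of the list, against 4.06% of all probe sets. Besides F5 these differed by -0.84 for PROCR (adjusted p = 0.000162) and 0.66 for F12 (adjusted p = 0.0434), while the difference for PROS1 was -0.41 (adjusted p = 0.157). No gene of this list was called for TAM at 4 h in siNEG cells, where 1 had an unadjusted p under 0.05, or in siSTAT3 cells at either time, where 3 had one at 24 h and 4 at 4 h. These counts too have no share of all probe sets beside them.

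Markers of other cells were summed over each list, as group means. The endothelial list, with PECAM1 and TEK above 100 units of 8 genes, summed to between 326 and 590 units in the 8 groups, and the immune list, with CD14 and ITGAM above 100 units of 5 measured genes, to between 569 and 1051 units. The luminal epithelial list, with 5 of 6 genes above 100 units and KRT19 at or below 20.5 units, summed to 36585 units in siSTAT3 and 23164 units in siNEG cells with TAM at 24 h and to between 29664 and 37398 units elsewhere, so it was lowest where SERPINE2 and THBD were highest. The fibroblast list, with COL1A1 and DCN above 100 units of 7 genes, summed to 2953 units in siSTAT3 and 7443 units in siNEG cells with TAM at 24 h, where SERPINE2 and THBD were also highest, and to between 2276 and 5858 units elsewhere, while COL1A2, COL3A1, LUM, PDGFRA and PDGFRB stayed under 100 units. The platelet list, with PF4 and PPBP above 100 units of 4 genes, summed to 452 units in siSTAT3 and 1047 units in siNEG cells with TAM at 24 h and to at most 277 units elsewhere, with GP9 and ITGA2B under 100 units. All samples were of the MCF10A-ER-Src line, so these sums are signals of genes on the lists and do not show that such cells were present. The relation of the sums to the 8 genes was not tested. In bulk RNA, fewer cells with a marker and less of its RNA per cell cannot be told apart.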

How the data were processed

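RNA of MCF10A-ER-Src cells was hybridised by the authors to Affymetrix Human Genome U133 Plus 2.0 arrays. The authors deposited 1 intensity for each of 54675 probe sets and 23 arrays, background corrected, scaled and summarised with MAS5 per the labels; the scaling target is not given in the sources used here. Probe sets were named through the platform annotation (41097 with 1 gene, 1801 with several, 11777 with none; the last 2 kinds were not used for genes).

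Signals were log2 transformed with nothing added and no filter. All arrays entered 1 limma fit (3.58.1, R 4.3.3) that estimated a mean for each group, and moderated tests (15 residual and 1.27 prior degrees of freedom) were adjusted by Benjamini-Hochberg over all probe sets of each of 14 comparisons; the arrays of all groups share 1 estimate of spread. Errors are SE of log2 differences or SD of signals, and intervals are 95%. The scripts were tested on simulated data with known changes.

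Named genes are the 8 genes by their main probe set, called genes of the 2 lists (at most 10 per list, a group mean of at least 100 units), STAT3, and the 3 genes most like each of the 8 whose group means span at least 1 log2 unit. The genes, lists and tests were chosen with earlier results of these data known. Some listed genes are not reported here. Alternatives were fits with the arrays of a comparison alone, an intensity trend with a robust prior, a filter at 100 units, equal array medians, 16 units added before log2, the limits of the study's methods (p under 1e-04 with a log2 change of more than 0.5 either way), the second probe set, the replicate number as a block, and each array left out in turn.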

Additional observations from a re-analysis of the deposited data

Results flagged for a closer look

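Differences between effects that passed limma's test were singled out. The TAM response in siSTAT3 cells minus that in siNEG cells at 24 h was 0.95 for PLAU, 0.74 for PLAT, -1.76 for SERPINE2 and -1.84 for THBD. The TAM response at 24 h minus that at 4 h was 1.84 for PLAU and 0.65 for THBD in siSTAT3 cells, and 1.12 for PLAU, 1.42 for PLAUR, 1.73 for SERPINE2 and 2.72 for THBD in siNEG cells. The lowest ACTB 3'/5' ratio, 1.21, was shared by 3 arrays: replicate 1 of siSTAT3 cells with TAM at 4 h and both arrays of such cells at 24 h, which enter the first 4 values and those of siSTAT3 cells. The GAPDH 3'/5' ratios of these 3 arrays were 0.917, 0.933 and 0.913, within a range of 0.910 to 1.03 over all arrays. The part of either ratio in the values above was not tested.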

How the results depend on the processing

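Of 52 calls of the 8 genes over 14 comparisons, fits with the arrays of a comparison alone lost 29 and gained 1, the limits of the study's methods lost 9, the second probe set lost 8 and gained 4 (PLAT and F3 have none), and equal array medians lost 1. An intensity trend with a robust prior gained 13, as did a filter at 100 units, and 16 units added before log2 gained 1. Replicate numbers were not taken to pair the arrays: deviations from the group mean had a median correlation of 0.0276 over 77 same-numbered pairs, of which 11 exceeded 0.1, and of -0.0172 over other pairs, while 14 of 23 arrays were closest to one of their own number. The replicate block lost 1 call, PLAT for the difference of the 24 h responses (0.73), and changed no other call. With the arrays of a comparison alone, the number of genes called was 0 for TAM in siSTAT3 cells at 24 h and at 4 h and 1 for TAM in siNEG cells at 4 h; for siSTAT3 minus siNEG it was 3 and 1 with TAM and 0 and 0 with EtOH at 24 h and 4 h; it was 2 for 24 h minus 4 h in siNEG cells and 1 for the change of the response in siSTAT3 cells. The trend and the filter gave 5 for TAM in siNEG cells at 4 h, 5 for siSTAT3 with EtOH at 24 h and 1 for the difference of the 4 h responses. The limits of the methods gave 4 for 24 h minus 4 h in siNEG cells (2.65% of all probe sets) and 2 for the difference of the 24 h responses (1.82%). The second probe set gave 2 for siSTAT3 with EtOH at 4 h (3.18% in the main fit), and equal medians gave 1 for the change of the response in siSTAT3 cells. For the fits run anew, including those that left out 1 array, the share of all probe sets called was not counted. Their counts of genes therefore have no background. The cause of these changes was not tested.

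Leaving out 1 array gave 1 to 3 genes for siSTAT3 with EtOH at 24 h, 0 to 1 for the difference of the 4 h responses and 1 to 2 for the change of the response in siSTAT3 cells. Uncalled values changed sign: for PLAT in siSTAT3 cells the TAM response ranged between -0.291 and 0.0239 at 24 h, between -0.0889 and 0.169 at 4 h, and their difference between -0.306 and 0.00863; for THBD in siSTAT3 cells at 24 h between -0.00723 and 0.0510; for TFPI between -0.123 and 0.0364 (24 h minus 4 h, siNEG) and between -0.102 and 0.0578 (siSTAT3, EtOH, 24 h); for TFPI2 between -0.439 and 1.146 (siSTAT3, EtOH, 24 h) and between -0.129 and 1.261 (change of the response, siSTAT3). The second probe set turned SERPINE2 to 0.13 (24 h minus 4 h, siNEG), 0.27 (siSTAT3, EtOH, 4 h) and -0.38 (TAM, siSTAT3, 4 h), TFPI to 0.15 (24 h minus 4 h, siNEG) and 0.14 (TAM, siSTAT3, 24 h), and TFPI2 to -0.0315 (TAM, siSTAT3, 4 h); that of SERPINE2 lay near background.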
